A study of Homo sapiens with 6 samples.

Results

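The genes described here encode the protein kinases that cAMP and cGMP switch on: subunits of protein kinase A (PKA), the cAMP-dependent kinase, its close relative PRKX, and the cGMP-dependent kinases PRKG1 and PRKG2. They were found in the screen's well table by the gene (locus) identifier of each library well, whatever the signal of that well. Of 10 genes sought, 9 had a well, 1 well each, among 939 library wells that target 925 genes. PRKAR1B was not analysed here.

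The screen put siRNA from a kinome library and a GPCR library on SUM149PT, a cell line established from an inflammatory breast cancer of the triple-negative kind, and asked which knockdown adds to the effect of eicosapentaenoic acid (EPA), an omega-3 polyunsaturated fatty acid. One group of 3 samples was given 50 µM EPA, which the labels describe as an IC50, for 72 hours, and the other group of 3 samples was left untreated. In both groups 45 nM siRNA had been complexed for 30 minutes with a transfection reagent before 750 cells were added per well, and 48 hours passed before EPA. The readout was the fluorescence of resazurin, a dye that living cells reduce, in raw units of 1 plate reading per well and sample. Whether the samples came from separate cultures is not stated in the sources used here, so the p-values cover the spread between samples only, and that spread may be technical. All samples are of 1 cell line, the number of samples and the gap to the blank wells limit the precision, and neither mRNA nor protein was read, so the depth of each knockdown and the cells' own markers could not be checked.

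PKA is held inactive by its regulatory subunits, which release the catalytic subunits when they bind cAMP. Type I holoenzymes contain PRKAR1A or PRKAR1B and are largely soluble, whereas type II holoenzymes contain PRKAR2A or PRKAR2B and are mostly tethered to membranes and organelles by A-kinase anchoring proteins. The cGMP-dependent kinases carry the cyclic nucleotide-binding and catalytic parts in 1 chain and act downstream of nitric oxide and natriuretic peptides. Loss of a regulatory subunit and loss of a catalytic subunit are therefore different perturbations of the same pathway.

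All 9 wells lay on plate 2, none of them at the plate edge. The wells of PRKACA, PRKACB, PRKACG, PRKAR1A, PRKAR2A and PRKAR2B shared plate row 6, those of PRKG1 and PRKG2 shared row 10, and that of PRKX was in row 12. On this plate the median of the 16 wells of OTP3, the negative control siRNA, was 22270 ± 4185 units with EPA and 52575 ± 1487 untreated (SD, n = 3 each), which left 42.4% ± 4.65 (SE). The median of the 320 library wells was 14913 ± 2846 with EPA and 24573 ± 1920 untreated, or 60.7% ± 7.22 left. Blank wells read 3937 ± 34.7 with EPA and 3739 ± 123 untreated, and TOX, the positive control siRNA, read 4058 ± 399 with EPA and 4543 ± 208 untreated. EPA acted unevenly along the plate: in wells of cells alone and OTP3, 87.9% of the signal was left in row 1 and 79.4% in row 16, against 33.8% in row 6, 37.6% in row 10 and 37.7% in row 12. The median signal of the library wells in rows 6, 10 and 12 with EPA was 54.95%, 65.5% and 44.4% of the untreated median. This is a ratio of medians and not the share that a median well kept.

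Values below are log2 ratios of a well to the median of the library wells of its plate and sample, unless raw units are named. A negative EPA-minus-untreated difference means that the well lost more signal with EPA than the library median did. Calls are those of limma's moderated test with Benjamini-Hochberg adjustment over all 939 wells at 0.05. Of all wells, 15.2% were called lower and 29% higher in this comparison, and the median of the single-well differences was 0.20. A difference between 0 and 0.20 is thus positive but below that of the median well. Of the 9 kinase wells, 2 were lower (PRKAR2A and PRKX) and 2 higher (PRKG1 and PRKAR2B), with a median of 0.06. These shares are near the background, and the results below concern single genes.

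**Figure D1:**
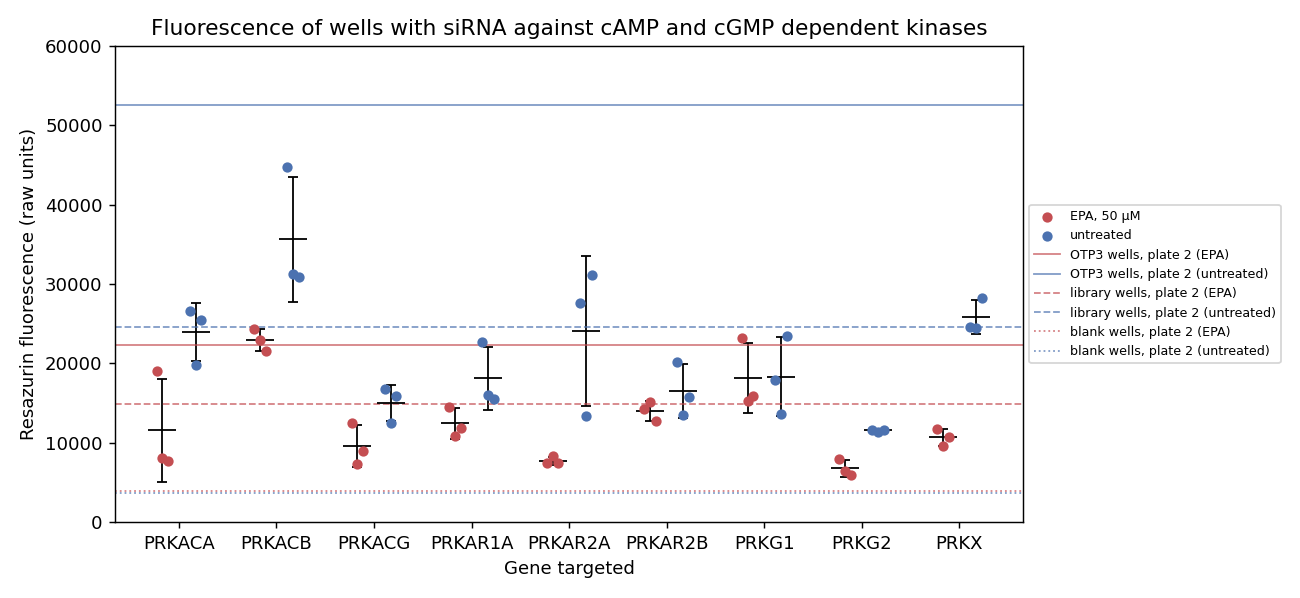
Raw resazurin fluorescence (vertical axis, units) of the 9 wells in each sample, EPA-treated left of untreated, with mean and SD in black. Horizontal lines give the plate 2 medians of OTP3, library and blank wells in each group. All 3 EPA values lie below all 3 untreated values for PRKACA, PRKACB, PRKAR1A, PRKAR2A, PRKG2 and PRKX, and the groups overlap for PRKG1, PRKAR2B and PRKACG. The median signal of the library wells of the plate also fell with EPA, to 60.7% of untreated. The share of all library wells separated in raw units was not counted.

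Of the regulatory subunits of type II PKA, PRKAR2A was called lower and PRKAR2B higher with EPA relative to the library median, while in raw units both had lower means with EPA. The PRKAR2A well, targeting RII alpha, read 7423, 8283 and 7473 units in EPA replicates 4 to 6, against 27610, 13359 and 31188 units in untreated replicates 1 to 3. The EPA values were tight and every one was lower than every untreated value, of which replicate 2 was far below the other two. In raw units 32.1% ± 7.36 (SE) of the signal was left, and 18.8% after subtraction of the blank wells. The library median of the row kept 54.95% in raw units. Relative to the library, PRKAR2A stood at -0.93 with EPA (SE 0.20, limma adjusted p = 0.00172) and at -0.12 untreated (adjusted p = 0.619), a difference of -0.81 (SE 0.284, adjusted p = 0.0407). The log2 values of untreated replicate 2 (-0.79) and of EPA replicates 5 and 6 (both -0.76) overlapped. Without untreated replicate 2 the difference was -1.15 and was called, whereas leaving out any other single sample gave -0.56 to -0.90 and no call. The lower signal with EPA taken by itself was called under each of 13 alternatives, including every sample left out. The difference from untreated was called under 8 of 17. Centred on OTP3 it was -0.29 and centred on the control wells of its own row 0.02, neither called, so the lower call is one relative to other library siRNAs.

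The PRKAR2B well, targeting RII beta, read 14209, 15190 and 12705 units with EPA, against 20204, 13565 and 15759 units untreated. The raw values overlapped, and 85.0% ± 11.0 (SE) of the signal was left (exact permutation p = 0.4). PRKAR2B stood at -0.07 with EPA (limma adjusted p = 0.60) and at -0.59 untreated (adjusted p = 0.0019). The difference was 0.52 (SE 0.178, adjusted p = 0.0392), and relative to the library all 3 EPA values were above all 3 untreated values. Such separation upwards was seen in 36% of all library wells. Its lower untreated signal was called under each of 13 alternatives. The difference was called under 11 of 17, with 0.62 after median polish of plate rows and columns, 1.04 centred on OTP3 and 1.35 centred on row controls, but not after blank subtraction alone (0.64), after centring on the median difference of the plate (0.31) or without any 1 of 4 samples (untreated replicates 2 and 3, EPA replicates 5 and 6). Centring on OTP3 or row controls moved the difference of every kinase well upwards, so a higher call there is not separate support.

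Because PRKAR2A and PRKAR2B shared plate and row, the ratio of their wells within a sample needs no centring. The log2 ratio of PRKAR2A to PRKAR2B was -0.94, -0.87 and -0.77 with EPA, against 0.45, -0.02 and 0.98 untreated. The groups did not overlap and differed by -1.33 (two-sided exact permutation p = 0.1, which is the lowest value possible with 3 samples a group, and 0.15 adjusted over 3 pairs). This ratio and those of the other pairs were taken up after the values had been seen. How many other same-row pairs of library wells separate in this way was not counted. The separation is therefore not separate support for the calls of the single wells. The difference in the PRKAR2A to PRKAR2B ratio was -1.97 after blank subtraction, and the ratio does not tell which of the wells moved.

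**Figure D2:**
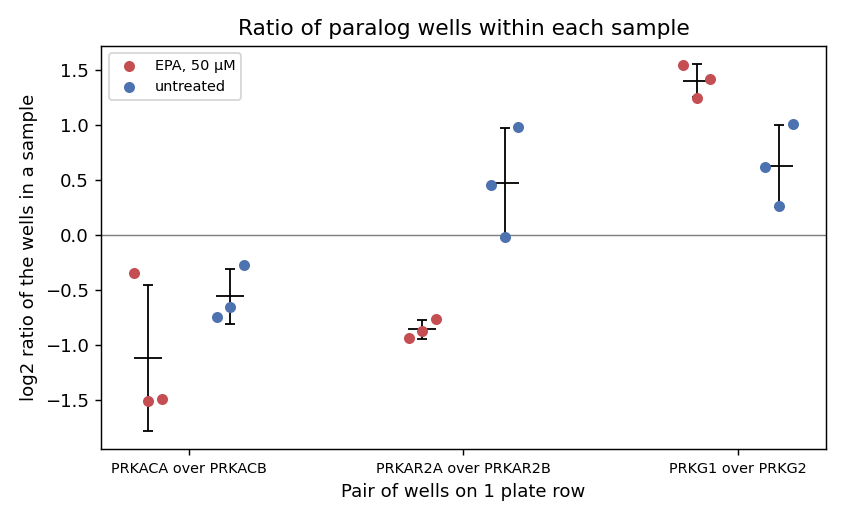
Log2 ratio of the wells of related genes on 1 plate row within each sample (points), EPA-treated left of untreated, with mean and SD in black. PRKAR2A over PRKAR2B was lower with EPA and PRKG1 over PRKG2 higher, each without overlap between groups, while PRKACA over PRKACB overlapped. The pairs were taken up after the values had been seen. The share of other same-row pairs of library wells without overlap was not counted.

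PRKAR1A, the type I regulatory subunit RI alpha, is a tumour suppressor gene lost in Carney complex. Its well read 14539, 10861 and 11915 units with EPA, against 22686, 16089 and 15574 units untreated. The groups did not overlap in raw units and, where the library median of the row kept 54.95%, 68.7% ± 10.6 (SE) was left for PRKAR1A. Relative to the library it stood at -0.26 with EPA (limma adjusted p = 0.0732) and at -0.46 untreated (adjusted p = 0.00571), where it was called lower, but not after median polish (-0.29) or without untreated replicate 3 (-0.38). The difference of 0.20 was not called (adjusted p = 0.343, 95% interval -0.17 to 0.58).

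Among the catalytic subunits, PRKACB was the only one of the 9 wells called higher than the library median in either group. In other settings PRKG1 with EPA was called higher too, at 0.69 after median polish, 0.98 with blank subtraction as well and 0.46 without edge wells, as was untreated PRKX, at 0.28 and 0.34 after median polish without and with blank subtraction. PRKACB encodes C beta. Its well read 24282, 23009 and 21564 units with EPA, against 44734, 31289 and 30860 units untreated, the highest mean of the 9 in each group. It stood at 0.64 with EPA (SE 0.108, limma adjusted p = 0.000359) and at 0.52 untreated (adjusted p = 0.00173), and the difference of 0.12 was not called (95% interval -0.22 to 0.46). As a share of the OTP3 median of the plate, PRKACB reached 105% ± 15.3 with EPA and 67.8% ± 15.1 untreated (SD, n = 3 each), so the untreated position above the library median was still below OTP3, at -0.58 when centred on it.

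PRKACA, which encodes C alpha, the main catalytic subunit in most tissues, had 1 EPA sample apart from the others. Its well read 19053, 8042 and 7656 units in EPA replicates 4, 5 and 6, against 26619, 19795 and 25526 units untreated. It stood at -0.48 with EPA (limma adjusted p = 0.0222) and at -0.04 untreated (adjusted p = 0.819). The lower call with EPA was lost without EPA replicate 5 (-0.32) or 6 (-0.36), after median polish (-0.26) and without edge wells (-0.30). The difference of -0.44 was not called (SE 0.233, adjusted p = 0.15, 95% interval -0.96 to 0.08). Without EPA replicate 4 it was -0.72 and was called (adjusted p = 0.0105, against 0.0105 to 0.996 over 17 alternatives), and after median polish it was -0.0017.

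PRKACG, C gamma, is an intronless gene expressed mainly in testis. Its well was low in both groups, with 12556, 7353 and 8943 units with EPA, against 16774, 12441 and 15928 units untreated, and the groups overlapped by 1 sample each. It stood at -0.65 with EPA (limma adjusted p = 0.00078) and at -0.72 untreated (adjusted p = 0.000521), a difference of 0.06 (95% interval -0.33 to 0.46, adjusted p = 0.785). The untreated call was made under each of 13 alternatives; the call with EPA was lost after median polish (-0.10).

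PRKX, an X-linked catalytic subunit related to C alpha, was called lower with EPA relative to the library median. Its well read 11768, 9611 and 10749 units with EPA, against 24656, 24499 and 28286 units untreated, so 41.5% ± 3.13 (SE) was left. The samples within each group were close together and the groups were well apart. PRKX stood at -0.47 with EPA (limma adjusted p = 0.00539) and at 0.07 untreated (adjusted p = 0.626), and the difference was -0.54 (SE 0.172, adjusted p = 0.0294). The lower call with EPA was lost after median polish (-0.015), with blank subtraction too (0.0041) and without edge wells (-0.28), and the difference was called under 8 of 17 alternatives. The log2 values did not overlap, as in 18.8% of all library wells in this direction. The median library well of the same row stood at -0.35, and after median polish PRKX was at -0.30 and was not called. Nor was it called without untreated replicate 2 (-0.53), untreated replicate 3 (-0.45), EPA replicate 4 (-0.46) or EPA replicate 5 (-0.50). OTP3 on this plate kept 42.4%, and centred on OTP3 the PRKX difference was -0.02.

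Of the cGMP-dependent kinases, PRKG1 was called higher with EPA relative to the library median, and PRKG2 was called lower than the library median in each group. The PRKG1 well, targeting the kinase that mediates nitric oxide signalling in smooth muscle and platelets, read 23223, 15281 and 15882 units with EPA, against 17895, 13644 and 23497 units untreated. The groups lay on top of each other, with 98.8% ± 20.7 (SE) of the signal left (exact permutation p = 0.9). Wells of cells alone and OTP3 in the same row kept 37.6% ± 2.62 and the library median of that row 65.5% ± 9.34. PRKG1 stood at 0.27 with EPA (limma adjusted p = 0.109) and at -0.45 untreated (adjusted p = 0.0164), and the difference was 0.73 (SE 0.202, adjusted p = 0.0158), the largest of the 9 relative to its error, with all 3 EPA values above all 3 untreated ones. Such separation upwards was seen in 36% of all library wells, and of the 939 library wells 853 had a lower difference. The call was made under 13 of 17 alternatives, with 0.63 after median polish, 0.92 after blank subtraction, 1.25 centred on OTP3 and 1.41 on row controls. Centring on OTP3 or row controls moved all 9 differences upwards, so a higher call there is not separate support. The PRKG1 call was lost when the plate's median difference was removed (0.52) and without untreated replicate 1 (0.66), untreated replicate 2 (0.58) or EPA replicate 6 (0.70). The untreated lower call was absent after median polish (0.056) and without untreated replicate 1 (-0.39) or 2 (-0.30).

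PRKG2, the membrane-bound kinase of intestine, kidney and cartilage, had the lowest mean signal of the 9 in both groups. Its well read 7959, 6442 and 5951 units with EPA, against 11679, 11393 and 11676 units untreated. The untreated samples were nearly identical, and the EPA samples stood 1.75-fold above the blank wells. It was at -1.13 with EPA (SE 0.102, limma adjusted p = 3.84e-06) and at -1.08 untreated (adjusted p = 7.79e-06), both called under each of 12 alternatives. The difference was -0.05 (95% interval -0.37 to 0.27, adjusted p = 0.802). Centred on OTP3 it was 0.47 and called higher (adjusted p = 0.0467, with 0.00841 to 0.947 over 16 alternatives), and after blank subtraction with median polish -0.68, not called. The log2 ratio of PRKG1 to PRKG2, both in row 10, was 1.54, 1.25 and 1.42 with EPA, against 0.62, 0.26 and 1.01 untreated. The groups did not overlap and differed by 0.77 (exact permutation p = 0.1, the smallest possible, and 0.15 adjusted over 3 pairs), or by 1.48 after blank subtraction.

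The third pair, PRKACA to PRKACB, had log2 ratios of -0.35, -1.52 and -1.49 with EPA, against -0.75, -0.66 and -0.27 untreated. These overlapped through EPA replicate 4 and differed by -0.56 (exact permutation p = 0.3, also after adjustment).

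**Figure D3:**
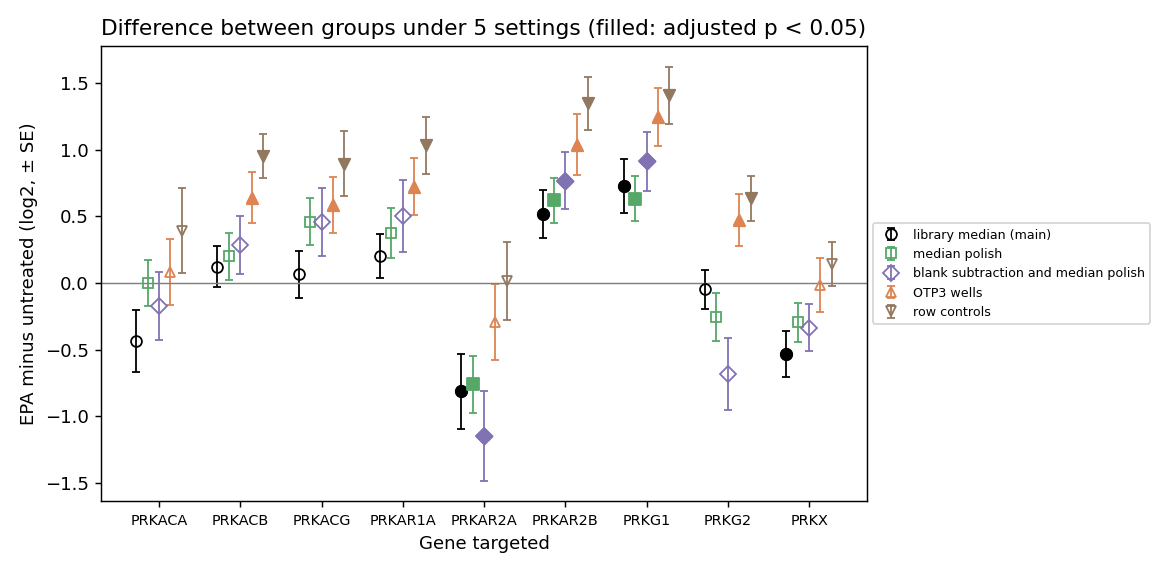
EPA-minus-untreated difference (log2, ± SE from limma) of each gene under 5 settings, with filled symbols for an adjusted p under 0.05. PRKG1 and PRKAR2B are above 0 and called in all 5, PRKAR2A is called in the 3 that centre on library wells, and centring on OTP3 or row controls moves every gene upwards. Median difference centring is not shown, and there PRKG1 (0.52) and PRKAR2B (0.31) are not called.

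Set against the library median, the siRNAs alone gave 5 lower wells (PRKACG, PRKAR1A, PRKAR2B, PRKG1 and PRKG2) and 1 higher well (PRKACB) of 9 without EPA, where 35.6% of all wells were lower and 33.9% higher. With EPA 5 were lower (PRKACA, PRKACG, PRKAR2A, PRKG2 and PRKX) and 1 higher (PRKACB), where 37% and 36.4% of all wells were. Against OTP3 all 9 were lower untreated, between 22.04% of the OTP3 median for PRKG2 and 67.8% for PRKACB. This is not particular to these genes, because the untreated library median of the plate (24573 units) was also far below OTP3 (52575 units). The share of all library wells below OTP3 was not counted. With EPA the same wells ranged from 30.6% for PRKG2 to 105% for PRKACB. By untreated log2 value the order upwards was PRKG2, PRKACG, PRKAR2B, PRKAR1A, PRKG1, PRKAR2A, PRKACA, PRKX and PRKACB. Only the steps from PRKG2 to PRKACG and from PRKX to PRKACB separated the sample values of neighbours without overlap. With EPA the order was PRKG2, PRKAR2A, PRKACG, PRKACA, PRKX, PRKAR1A, PRKAR2B, PRKG1 and PRKACB, and only the last 2 steps, to PRKG1 and to PRKACB, were free of overlap.

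**Figure D4:**
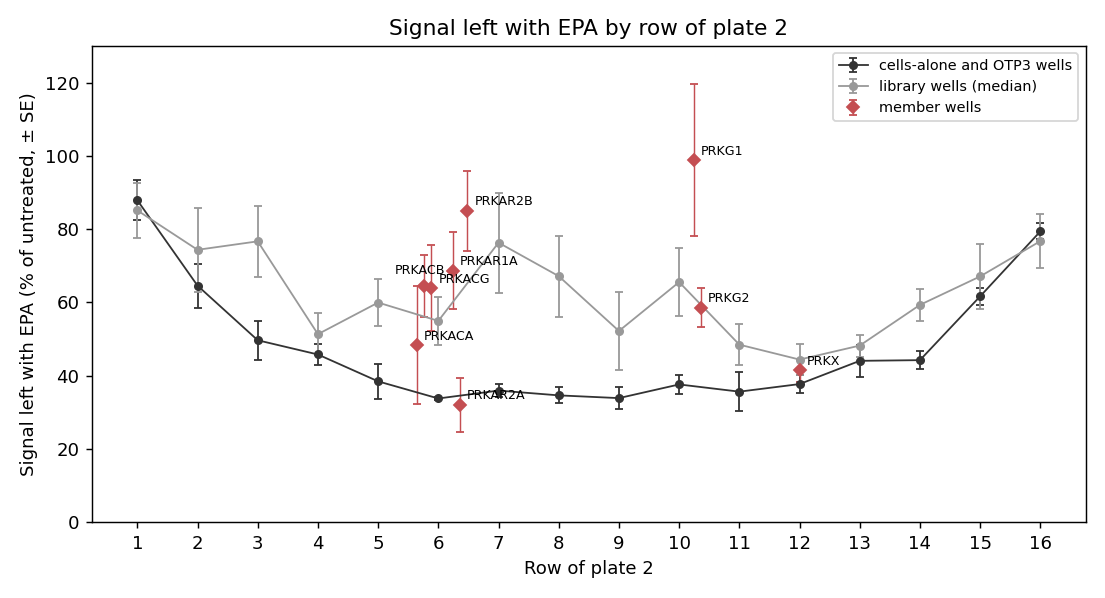
Signal left with EPA (% of untreated, ± SE) by row of plate 2 for wells of cells alone and OTP3, for the median signal of the library wells, and for the 9 kinase wells. The kinase wells are in red, shifted sideways within a row by plate column. In row 6 the wells range from 32.1% for PRKAR2A to 85.0% for PRKAR2B, in row 10 PRKG1 (98.8%) lies above PRKG2 (58.6%), and PRKX (41.5%) lies near both curves of row 12.

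The wells whose 6 log2 values were most like those of PRKG1 were STK36, RIOK1 and TESK1, at Euclidean distances of 0.296, 0.351 and 0.395 log2 units. All 3 were on plate 3, RIOK1 and TESK1 in edge row 1 and STK36 in row 15.

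The partners of PKA were also in the libraries. The counts below stand beside 15.2% lower and 29% higher over all library wells, and 14.2% and 16.3% after median polish. Of the PKA inhibitors and A-kinase anchoring proteins, 3 were lower with EPA and 3 higher among 11 measured (median 0.15), and 1 lower and 4 higher after median polish. AKAP4, a sperm protein, was at -1.0 (limma adjusted p = 0.00135), but at -0.39 and not called after median polish. AKAP5, which anchors PKA at the plasma membrane, was at -0.77 (adjusted p = 0.0128; -0.27 after median polish, not called). AKAP11, another anchoring protein, was at 0.74 (adjusted p = 0.0108), and AKAP8, a nuclear one, at 0.71 (adjusted p = 0.00573), both called after median polish too.

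Upstream, no adenylyl cyclase was among the 9 measured genes of the list of cyclases and G protein alpha subunits, of which 4 were lower and 3 higher (median -0.38). GNAI1, a G protein that inhibits adenylyl cyclase, was at -0.98 (limma adjusted p = 0.000766) and GNAS, the one that stimulates it, at 0.64 (adjusted p = 0.00405). Both kept their calls after median polish, and GNAS sat in an edge well. GNA13 (-1.02) and GNAZ (-0.85, in an edge well) were also called lower, before and after median polish. Calls within the inhibitory family of GNAI1 were mixed, and an effect through adenylyl cyclase was not tested. GNAZ, also of this family, was lower, GNAO1 was called higher at 0.46 (limma adjusted p = 0.0464) and GNAI3 (-0.38) was not called. The wells of GNAO1 and GNAI3 were also at the edge, and GNAO1 was not called after median polish (0.20). Of the Gs-coupled receptors, whose ligands raise cAMP, 5 wells were lower and 5 higher among 20 (19 genes, median 0.06), with CALCRL, the calcitonin receptor-like receptor, at -1.37 and the adenosine receptor ADORA2A at 0.75, both called after median polish too. Of the Gi-coupled receptors, whose ligands lower cAMP, 0 were lower and 6 higher among 9 (median 0.49), and 3 of the 9 were higher after median polish. GABBR1 had the largest difference (1.29), but its untreated values varied widely (18676 ± 10549 units, SD). CNR1 and CNR2, both higher, sat in edge wells and were not called after median polish. At an unadjusted limma p under 0.05, 0 of the Gi-coupled receptors were lower and 6 higher, where 18.3% and 34.7% of all wells were.

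For cGMP, 2 guanylyl cyclase receptors were lower and 1 higher among 5 measured (median 0.13). GUCY2C, the receptor of guanylin, was at -0.84 (limma adjusted p = 0.00267), and at -0.54 and still called after median polish. NPR2, the receptor of C-type natriuretic peptide, was at -0.71 (adjusted p = 0.00383), but was not called after median polish (-0.22). Of RAPGEF3 and RAPGEF4, the cAMP-activated exchange factors EPAC1 and EPAC2 that act beside PKA, RAPGEF3 was at -0.55 and RAPGEF4, in an edge well, at 0.45, and neither was called after median polish. Among kinases that PKA phosphorylates, 3 were lower and 3 higher of 12 (median 0.24), with GSK3B (-0.71), in an edge well, and PHKA1 (-0.53), a phosphorylase kinase subunit, lower, both also after median polish. PDPK1, which phosphorylates the activation loop of AGC kinases, was the only one called of the 8 wells of near AGC kinases, at 0.71 (adjusted p = 0.0466). These lists were written with earlier results of the screen known.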

How the data were processed

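Per the labels, SUM149PT cells in 384-well plates were read with CellTiter-Blue, a resazurin reagent. The authors deposited raw fluorescence intensity, 1 value per well and column, per the file headers; whether they were corrected for blanks or normalized is not stated there, and blank wells still carry signal. Columns carry a group and the numbers 1 to 6, so each was assigned to a group only. Of 1152 wells, 939 were library wells, and 21 without siRNA were left out. Symbols came through locus identifiers from a RefSeq table of GRCh38.p14 (933 wells matched). Intensity was expressed as log2 of its ratio to the library median of its plate and sample, without pseudocount or filter. limma 3.58.1 (R 4.3.3; trend, robust) fitted group means to all 939 wells over all 6 columns, and was tested on simulated data. Single quantities had two-sided exact permutation tests in SciPy 1.17.1. All members were named. In each list at most the 4 wells with the largest moderated statistic were eligible, with GNAO1 and GNAI3 named besides. Members and lists were chosen with earlier results of these data known. The sequences of the siRNAs were not used here.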

Additional observations from a re-analysis of the deposited data

How the results depend on the processing

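Each gene had 1 well, so position and reagent cannot be told apart. For 13 reagents on 2 wells, the EPA-minus-untreated value differed between wells by a median of 0.37 and at most 0.71 log2 units, near the size of the calls described. No paired analysis was possible because the columns carry the numbers 1 to 6 and cannot be tied to the numbers of the labels. PRKG2 had no value without dim wells. Alternatives were OTP3 centring, row controls (2 or 3 wells per row), median polish, blank subtraction with a floor of 3 SDs, both of these, quantile normalization, leaving out 108 dim or 159 edge wells, plain variances, a linear scale, median difference centring and leaving out samples. The causes were not tested.

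In EPA minus untreated, 2 lower and 2 higher wells became 0 and 6 with OTP3 centring and with row controls, 1 and 2 with median polish, 1 and 2 with blank subtraction and polish, 0 and 2 without edge wells, 1 and 2 on a linear scale, 2 and 1 with blank subtraction, 2 and 0 with median difference centring, and 0 to 1 lower and 0 to 2 higher without single samples. Over all 939 library wells, 143 lower and 272 higher became 59 and 546 with OTP3 centring and 69 and 475 with row controls. They became 133 and 153 with median polish and 194 and 131 with median difference centring. The other changed counts of members in this paragraph have no count over all wells beside them. Untreated, 5 lower and 1 higher became 9 and 0 with OTP3 centring and row controls, and 3 and 2 with median polish, with or without blank subtraction. With EPA, 5 lower and 1 higher became 2 and 2 with median polish, 3 and 2 with blank subtraction and polish, 3 and 2 without edge wells, and 0 higher with OTP3 centring. Of the genes in the pathway lists, 18 lower and 23 higher became 7 and 42 with OTP3 centring, 9 and 34 with row controls, 13 and 15 with median polish and 21 and 13 with median difference centring.

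Signs turned as follows. Untreated, PRKACB was -0.58 and PRKX -1.03 with OTP3 centring, and -0.56 and -1.02 with row controls. With median polish untreated PRKAR2A was 0.11 and PRKG1 0.056 (0.10 and 0.073 after blank subtraction too). Without edge wells untreated PRKACA was 0.058. With EPA, PRKAR1A was 0.079 with median polish and 0.16 after blank subtraction too, where PRKX was 0.0041, PRKAR2B was 0.11 without edge wells, and PRKG1 was -0.31 with OTP3 centring and -0.038 with row controls. In EPA minus untreated, PRKACA was 0.082 and PRKG2 0.47 with OTP3 centring. With row controls PRKACA was 0.39, PRKG2 0.63, PRKAR2A 0.018 and PRKX 0.14. With median difference centring PRKACB was -0.086, PRKACG -0.14 and PRKAR1A -0.0035. With quantile normalization PRKACB was -0.056 and PRKG2 0.016, PRKACG was -0.12 with blank subtraction, and PRKG2 was 0.034 without edge wells. Without single samples the untreated values ranged from -0.11 to 0.043 for PRKACA, from -0.37 to 0.21 for PRKAR2A and from -0.014 to 0.16 for PRKX, PRKAR2B with EPA from -0.17 to 0.063, and the PRKACG difference from -0.022 to 0.20. None of these turned values passed the test, except untreated PRKACB and PRKX with OTP3 centring and row controls, and the PRKG2 difference in the same 2 settings.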
